A study of Mus musculus with 4 samples.

Results

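The leukocyte adhesion receptors of the immunoglobulin superfamily were followed across endothelial classes of the newborn mouse ear, at the level of mRNA for Icam1, Icam2 and Vcam1 and at the level of surface protein for ICAM1 and VCAM1. These 3 genes were taken by symbol from the 31054 rows of the mRNA matrices, and the 2 antibody tags were taken by tag number from 7. All were found in both libraries. ICAM2 protein was not tagged.

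The study profiled ear endothelium at postnatal day 8 during developmental vessel growth, in C57BL/6 mice carrying the Cdh5CreERT2-Rtom reporter. That reporter is red in cells in which Cre, driven by the endothelial Cdh5 promoter, has been switched on. Live cells that carried CD31 and the red label were sorted, so the sort leaves out cells without recombination. All cells share this genotype and age, there is no other condition, and the 2 libraries are biological replicates by their labels, with the number of pups in each not stated. Every p-value below therefore rests on 2 libraries.

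ICAM1, ICAM2 and VCAM1 sit on the luminal face of vessels and hold rolling leukocytes by binding integrins, ICAM1 and ICAM2 through the beta-2 integrins LFA-1 and Mac-1 and VCAM1 through the alpha-4 integrin VLA-4. Firm adhesion follows capture by the selectins and precedes passage through the vessel wall, which in most tissues takes place in small veins. ICAM2 is known as a constitutive endothelial protein, whereas ICAM1 and VCAM1 are induced by inflammatory cytokines through NF-kB.

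Icam1 (ENSMUSG00000037405) lies on the plus strand of mouse GRCm38 at chr9:21015985-21028817, Icam2 (ENSMUSG00000001029) on the minus strand at chr11:106377656-106388075, and Vcam1 (ENSMUSG00000027962) on the minus strand at chr3:116109949-116129688. The annotated antisense gene Gm47079 overlaps the end of Icam1 and had 2 and 18 UMIs in libraries 1 and 2, and Gm43109 overlaps Vcam1 and had 1 and 0 UMIs. A UMI is a unique molecular identifier, which counts a captured transcript a single time.

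Protein was read through a 15-base barcode on each antibody, and the whole barcode is what the tag counts stand for. It is printed for the 2 receptors and for the isotype controls, which carry antibodies with no target and set the background, in lower case because no single stretch of it matters more than another.
ICAM1 tag: ataaccgacacagtg
VCAM1 tag: cgttcctacctacct
rat IgG2a isotype control: aagtcaggttcgttt
rat IgG2b isotype control: gattcttgacgacct

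A promoter entry was found for 1 of the 3 genes, Icam1, in the RefSeq-based table on GRCm38.p6. It covers chr9:21015690-21015989 on the plus strand, from 250 bases before the RefSeq start to 50 bases after it, and is shown because Icam1 is the receptor gene whose mRNA and tag both separated the classes below. The 3 letter patterns searched on both strands are in capitals, GGAAATTCC (a site of the kind bound by NF-kB), TTCCNGGAA (the kind bound by STAT factors) and TATAAA (a core promoter element).
Icam1 promoter: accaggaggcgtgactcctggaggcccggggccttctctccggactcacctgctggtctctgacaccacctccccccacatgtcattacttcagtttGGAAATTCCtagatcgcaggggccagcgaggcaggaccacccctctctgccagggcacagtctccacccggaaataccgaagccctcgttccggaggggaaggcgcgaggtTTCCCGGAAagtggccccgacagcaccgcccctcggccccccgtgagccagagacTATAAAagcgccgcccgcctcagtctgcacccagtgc
Each pattern occurred in the window, with no overlap. GGAAATTCC begins 198 bases, TTCCNGGAA 87 bases and TATAAA 32 bases before the Icam1 start of the GENCODE annotation. Counted from the RefSeq start, which sets the window, GGAAATTCC begins 153 and TTCCNGGAA 42 bases before it, but TATAAA 13 bases after it. Of 32851 promoter windows of the same length, 0.317% hold GGAAATTCC, 1.15% TTCCNGGAA and 13.6% TATAAA. A match of letters is no evidence of binding.

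Libraries 1 and 2 held 1745 and 2877 mRNA barcodes with 15989249 and 26675353 UMIs, of which 1498 and 2239 cells were kept. Of 3737 kept cells, 3385 were endothelial, and 2555 of them entered 5 classes gated on marker genes that include none of the receptors. Artery-gated cells numbered 200 and 233 in libraries 1 and 2, vein-gated 194 and 198, capillary-gated 195 and 232, tip-gated 160 and 262, and lymphatic-gated 285 and 596. The other 830 were blood endothelial cells without a clear lead. Of 5 markers per class that were kept out of the gate, the class had the highest level in both libraries for 5 in artery, 5 in lymphatic, 4 in tip, 3 in vein and 0 in capillary. The capillary-gated cells are therefore called by their gate, which uses Car4, Timp4, Rgcc, Gpihbp1, Cd36, Rbp7, Cd300lg, Aqp7 and Btnl9. Of 2504 blood endothelial cells, 21.4% had a score within 0.1 of a gate limit, and the tip-gated cells also carried capillary markers (median of 47.2 per 10000 UMIs, against 74.3 in capillary-gated cells). Tag libraries listed 3000 barcodes each, and 93 of the 596 lymphatic-gated cells of library 2 were not among them, or 15.6%, against 0.505% to 7.73% in the other classes and libraries.

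All 3 mRNAs differed among the classes, where 50.0% of 10699 tested genes did, so passing that test is common here and the order of the classes is the result. Icam1 was highest in vein-gated cells, Icam2 in artery-gated cells, and Vcam1 in vein-gated and then artery-gated cells. Lymphatic-gated cells had the lowest mean of each. The edgeR adjusted p-values across classes were 7.1e-09 for Icam1, 6.64e-08 for Icam2 and 1.55e-07 for Vcam1.

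**Figure D1:**
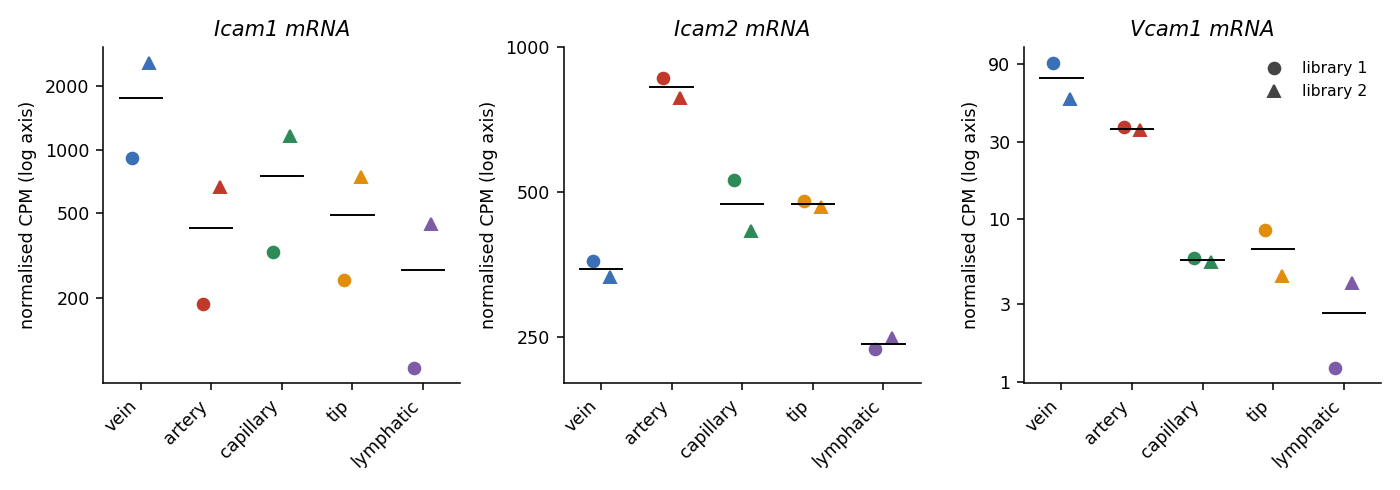
Normalised CPM (log axis) of Icam1, Icam2 and Vcam1 mRNA in 5 gated endothelial classes, with circles for library 1, triangles for library 2 and bars for the mean of both. Icam1 lies highest in vein-gated cells, Icam2 in artery-gated cells, and Vcam1 is near the bottom in capillary-gated, tip-gated and lymphatic-gated cells.

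Icam1, the cytokine-inducible ligand of LFA-1, reached 912 and 2569.9 normalised CPM (counts per 1000000 UMIs) in vein-gated cells of libraries 1 and 2. In capillary-gated cells it reached 328 and 1164 CPM. Tip-gated cells had 243 and 741 CPM. The order below veins continued with 186 and 665 CPM in artery-gated and 93.2 and 447 CPM in lymphatic-gated cells. Every class spans a wide range, because library 2 was higher in each, and the ranges of neighbouring classes overlap when the libraries are pooled. Within each library the order was the same for all 5 classes.

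The vein-gated level of Icam1 was above the other classes by 2.04 on the log2 scale (SE 0.10, edgeR adjusted p = 7.23e-09), a contrast in which 10.7% of genes were called higher. Against the nearest class, capillary-gated cells, the log2 difference was 1.31 (SE 0.14, adjusted p = 2.8e-05; 10.5% of genes were called). Capillary-gated cells lay above the other classes by 0.40 (SE 0.11, adjusted p = 0.025; 7.68% were called higher), a call lost under 6 of 12 alternatives, and artery-gated cells lay below them (log2 difference -0.61, SE 0.12, adjusted p = 0.0013; 12.1% were called lower), a call lost with a stricter cell filter (-0.29, adjusted p = 0.263) and without the replicate block. Capillary-gated cells stood above tip-gated cells by 0.55 (SE 0.14, adjusted p = 0.0492; 3.18% of genes were called), while artery-gated and tip-gated cells were not told apart (artery minus tip -0.26, SE 0.14, adjusted p = 0.208). Lymphatic-gated cells fell below the other classes by 1.54 (SE 0.12, adjusted p = 1.3e-07), where 22.6% of genes were called lower. All of these tests compare classes within a library: without the library as a replicate block, the Icam1 test across classes gave an adjusted p of 0.127.

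Icam2, which encodes the constitutive ligand of the same integrins, had 865 and 786 CPM in artery-gated cells. In capillary-gated cells it had 531 and 415 CPM and in tip-gated cells 478 and 465 CPM. Vein-gated cells had 359.9 and 332 CPM, and lymphatic-gated cells 236 and 248 CPM. The artery-gated values lay above those of all other classes, and the libraries of a class were close, with ratios of library 2 to library 1 between 0.781 and 1.05.

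Artery-gated cells exceeded the other classes in Icam2 by 1.16 on the log2 scale (SE 0.08, edgeR adjusted p = 6.38e-08; 15.8% of genes were called higher). Vein-gated cells were lower by 0.41 (log2 difference -0.41, SE 0.08, adjusted p = 0.00376; 5.51% were called lower). Capillary-gated and tip-gated cells had log2 difference -0.01 (SE 0.10, adjusted p = 0.996). Lymphatic-gated cells were lower by 1.05 (log2 difference -1.05, SE 0.09, adjusted p = 2.1e-07) and lay below vein-gated cells as well (vein minus lymphatic 0.51, SE 0.10, adjusted p = 0.00146; 35.2% of genes were called). Icam1 and Icam2 thus took opposite positions in the vein-gated and artery-gated cells: artery minus vein was -2.12 (SE 0.14) for Icam1 and 1.25 (SE 0.10) for Icam2, with adjusted p-values of 2.75e-07 and 1.65e-06 and 19.8% of genes called.

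Vcam1, which encodes the receptor for VLA-4, was the scarcest of the 3. It reached 92.4 and 55.4 CPM in vein-gated cells, from 184 and 104 UMIs. Artery-gated cells had 36.8 and 35.6 CPM, from 56 and 60 UMIs. The other classes lay at 5.75 and 5.43 CPM in capillary-gated, 8.61 and 4.45 CPM in tip-gated and 1.21 and 4.08 CPM in lymphatic-gated cells, from 4 to 29 UMIs per sum. In lymphatic-gated cells of library 2, 17 of the 29 UMIs came from a single cell. Vein-gated and artery-gated values do not overlap each other or the rest.

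Vein-gated cells exceeded the other classes in Vcam1 by 3.18 on the log2 scale (SE 0.22, edgeR adjusted p = 2.39e-07) and artery-gated cells by 1.92 (SE 0.27, adjusted p = 0.000114). Artery minus vein was -1.01 (SE 0.26, adjusted p = 0.0147). Among capillary-gated, tip-gated and lymphatic-gated cells no pair passed, with adjusted p-values of 0.947, 0.292 and 0.183. The fall of Vcam1 in capillary-gated cells against the other classes (log2 -1.43, adjusted p = 0.0299; 3.68% called lower) was lost under 5 of 12 alternatives, and that in tip-gated cells (log2 -1.25, adjusted p = 0.0292; 6.79% called lower) under 8 of 12.

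Among the gated classes, lymphatic-gated cells had the lowest share of cells with a UMI for each gene. The shares did not repeat the whole CPM order. In library 2, Icam2 was detected in 94.7% of tip-gated cells. Icam1 was detected in 57.5% and 72.9% of tip-gated cells, against 54.9% and 69.4% of capillary-gated cells. With cells thinned to equal depth these Icam1 shares were 40.3% and 57.1%, against 44.4% and 61.4%. The thinned Icam1 share of artery-gated cells in library 2 was 58.9%. Icam2 was detected in 98.5% of artery-gated cells of library 1 (exact Clopper-Pearson 95% interval 95.7 to 99.7%) and 94.4% of library 2 (90.6 to 97.0%), and still in 81.4% (76.4 to 85.7%) and 80.5% (77.1 to 83.6%) of lymphatic-gated cells. Among the few sorted keratinocytes it was detected in 0 of 7 and 0 of 5 cells of libraries 1 and 2 (exact upper limits of 41.0% and 52.2%), with median depths of 16495 and 13332 UMIs against 6509 and 6016 UMIs in artery-gated cells. Intervals and limits cover counting error only.

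Icam1 was detected in 87.6% (82.2 to 91.9%) and 95.5% (91.5 to 97.9%) of vein-gated cells. In lymphatic-gated cells the shares were 33.3% (27.9 to 39.1%) and 55.7% (51.6 to 59.7%). With every cell thinned to 4000 UMIs, which leaves out 6 and 14 shallower vein-gated and 4 and 9 lymphatic-gated cells, the shares were 75.0% and 94.0% in vein-gated and 19.2% and 38.5% in lymphatic-gated cells. Icam1 had UMIs in 8 of the 12 keratinocytes, at 183 and 126 CPM without TMM scaling. On that scale lymphatic-gated cells had 97.2 and 437 CPM. Icam1 made by keratinocytes and free RNA from other cells were not told apart, so keratinocytes set no sure background for Icam1. Expression was skewed from cell to cell: in capillary-gated cells of library 2 the mean was 11.1 UMIs per cell, the 90th percentile 36 and the highest cell 102.

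Vcam1 was detected in 29.4% (23.1 to 36.3%) and 22.2% (16.6 to 28.7%) of vein-gated cells and in 13.5% (9.09 to 19.0%) and 12.0% (8.14 to 16.9%) of artery-gated cells. Thinned shares were 17.0% and 13.6% in vein-gated and 10.0% and 6.25% in artery-gated cells. In capillary-gated cells the unthinned shares were 4.10% and 3.88%, in tip-gated 5.62% and 3.82% and in lymphatic-gated 1.40% and 1.68%. Cells set aside for pericyte genes showed 5.56% and 6.67% at medians of 12326.5 and 11439 UMIs, and those set aside for haemoglobin genes, which also carried Icam2, 3.23% and 6.25% at 9811 and 10372.5 UMIs. Cells set aside for smooth muscle genes showed 33.3% and 15.4%, and keratinocytes 0 of 7 and 0 of 5 cells, too few for a limit below 41.0% and 52.2%. No sorted group is thus sure to show the level of free RNA, and the low Vcam1 shares of the last 3 classes are read neither as expression nor as its absence.

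Surface ICAM1 followed the venous pattern of its mRNA. Vein-gated cells carried 308 and 371 ICAM1 tag counts per cell in libraries 1 and 2, tip-gated cells 117 and 141, and capillary-gated cells 104 and 144. Artery-gated cells carried 69.8 and 85.7, and lymphatic-gated cells 32.8 and 47.7. The groups of values do not overlap between vein-gated cells and the rest, between lymphatic-gated cells and the rest, or between artery-gated cells and either neighbour, whereas tip-gated and capillary-gated values overlap. ICAM1 made up most tag counts in both libraries, at 27.3 to 213 times the sum of the 2 isotype controls in library 1 and 25.5 to 153 times in library 2. The lowest multiple of each library was that of lymphatic-gated cells. Tag barcodes that matched no mRNA barcode reached a like multiple, so it does not set lymphatic-gated cells apart from them.

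**Figure D2:**
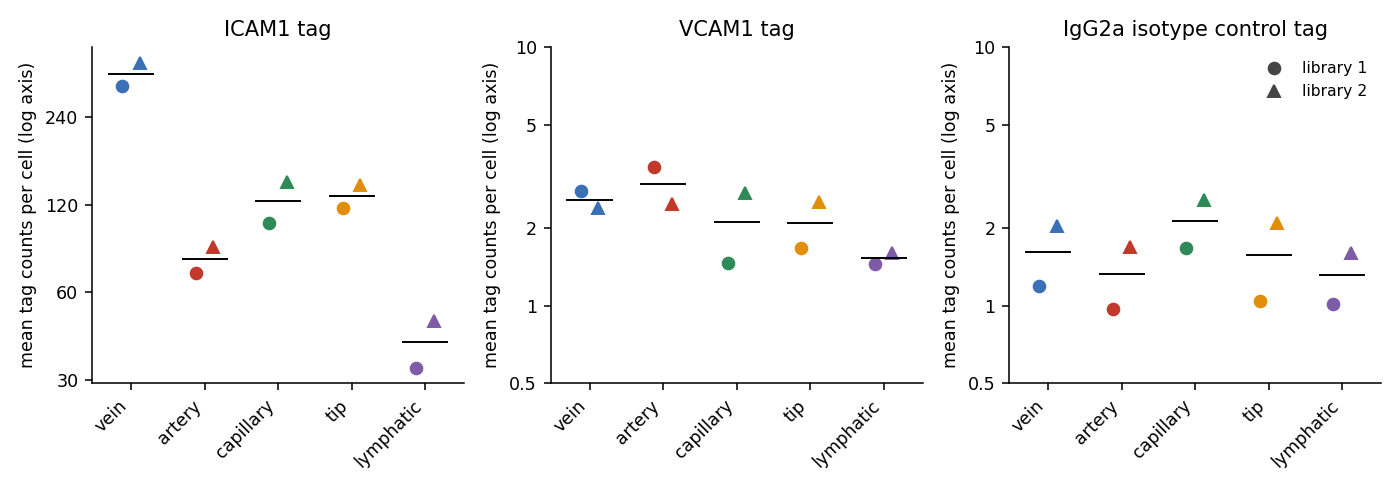
Mean tag counts per cell (log axis) for ICAM1, VCAM1 and the IgG2a isotype control in 5 gated classes, with circles for library 1, triangles for library 2 and bars for the mean of both. ICAM1 separates the classes from 32.8 to 371 counts, whereas VCAM1 lies between 1.45 and 3.43 counts, near the isotype control.

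Across classes the ICAM1 tag passed (edgeR adjusted p over the 7 antibodies = 3e-06), as did 85.7% of the tags, the isotype controls included. Vein-gated cells exceeded the other classes by 2.02 on the log2 scale (SE 0.07, adjusted p = 4.48e-07), next to 2.04 for the mRNA. Lymphatic-gated cells were lower (log2 difference -1.84, SE 0.09, adjusted p = 3.91e-06), next to -1.54 for the mRNA, but the sign turns when tags are scaled to all antibody counts of the cell (0.082, adjusted p = 0.128), of which ICAM1 makes up most. Artery-gated cells were lower by 0.64 (log2 difference -0.64, SE 0.09, adjusted p = 0.000518). Artery minus tip, not called for Icam1 mRNA at -0.26, was -0.73 for the ICAM1 tag (SE 0.11, adjusted p = 0.0011). Capillary minus tip was -0.07 for the tag (SE 0.10, adjusted p = 0.737).

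The ICAM1 tag averaged 4 and 16.8 counts in 5 keratinocytes per library. Some keratinocytes had Icam1 UMIs, their own or from free RNA, so they set no sure background for the tag. Within classes the spread was wide: the 10th and 90th percentiles of vein-gated cells were 104 and 588 counts in library 1 and 131 and 644 in library 2, and those of lymphatic-gated cells 8 and 66.9 in library 1 and 12 and 104 in library 2. Vein-gated and lymphatic-gated cells were thus separated at these percentiles, except that 104.2 and 104.4 counts are nearly the same.

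The VCAM1 tag was near its background. It averaged 3.43 and 2.47 counts per cell in artery-gated cells, against 0.969 and 1.69 for the IgG2a isotype control in the same cells. In vein-gated cells it averaged 2.77 and 2.38 counts, against 1.19 and 2.03 for the isotype control. In capillary-gated cells the VCAM1 tag had 1.46 and 2.74 counts, against 1.68 and 2.56. Tip-gated cells had 1.68 and 2.51 against 1.04 and 2.09, and lymphatic-gated cells 1.45 and 1.60 against 1.02 and 1.60. VCAM1 tags were 3.55 times the isotype control in artery-gated and 2.33 times in vein-gated cells of library 1, and 0.87 to 1.61 times in the other 8 class and library pairs.

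Across classes the VCAM1 tag did not pass (edgeR adjusted p = 0.142). Of 10 pairs of classes, artery-gated against lymphatic-gated cells passed (log2 0.97, SE 0.33, adjusted p = 0.0396). That call depends on the scaling: with tags scaled to all antibody counts of the cell, artery minus lymphatic was -0.34, lymphatic-gated cells lay above the other classes (log2 1.27, adjusted p = 0.00369; -0.66 per cell) and vein-gated cells below them (log2 -1.34, adjusted p = 0.00505; 0.30 per cell). The artery-gated mean of library 1 rested on few cells: the 3 highest held 38.3% of its tags, and without them the mean was 2.15, against 2.10 without the 3 highest in library 2.

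**Figure D3:**
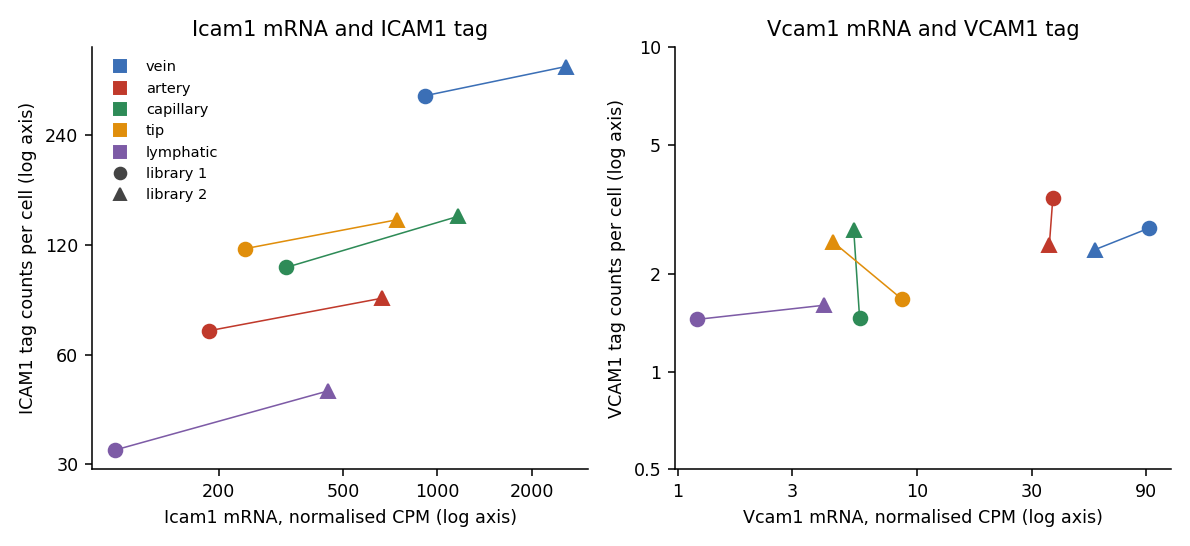
Mean tag counts per cell against normalised mRNA CPM (both log axes) for Icam1 with ICAM1 and for Vcam1 with VCAM1, with a circle for library 1 and a triangle for library 2 of each class, joined by a line. For Icam1 the classes climb together on both axes and library 2 lies far to the right but only slightly higher, and for Vcam1 the tag stays between 1.45 and 3.43 counts.

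Set side by side over the 5 classes, Icam1 mRNA and ICAM1 tag had Pearson r = 0.98 in library 1 and r = 0.96 in library 2 on log2 values. These are descriptions over 5 points that share their cells. The span from the lowest to the highest class was 9.79-fold for the mRNA and 9.38-fold for the tag in library 1, and 5.75-fold and 7.76-fold in library 2. For Vcam1 and its tag r was 0.86 in library 1 and 0.28 in library 2, with mRNA spans of 76.3-fold and 13.6-fold and tag spans of 2.37-fold and 1.71-fold.

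The libraries differed in Icam1 mRNA far more than in ICAM1 tag counts. The mRNA ratios compare CPM, which are scaled to depth, and the tag ratios compare counts per cell, which are not. Library 2 over library 1, Icam1 mRNA was 4.80-fold in lymphatic-gated, 3.57-fold in artery-gated, 3.54-fold in capillary-gated, 3.05-fold in tip-gated and 2.82-fold in vein-gated cells. A ratio of at least 2-fold was shown by 1.58% of genes in lymphatic-gated, 4.36% in artery-gated, 3.45% in capillary-gated, 2.33% in tip-gated and 4.14% in vein-gated cells. For the ICAM1 tag the ratios were 1.20 to 1.45, and for the isotype controls 1.55 to 1.94. Relative to the isotype controls the ICAM1 tag was thus lower in library 2 in every class, with 213 and 153 times in vein-gated cells. Icam2 had ratios of 0.781 to 1.05, and Vcam1 had 0.967 in artery-gated, 0.600 in vein-gated, 0.944 in capillary-gated, 0.517 in tip-gated and 3.37 in lymphatic-gated cells, the last 3 from few UMIs. With 1 group of 2 libraries, this difference has no test.

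The genes most like Icam1 were found by correlation over the 10 class and library sums, a measure that holds the difference between libraries as well as that between classes. Among the 5 with the highest Pearson correlation of log2 CPM of 4634 genes were Atf3 (r = 0.97), Tra2b (0.97), Zfp703 (0.94) and Phlda1 (0.93). Atf3 encodes a stress-induced transcription factor and Tra2b a splicing factor. Atf3 averaged 869.6 CPM in vein-gated and 213 CPM in lymphatic-gated cells, and its ratio of library 2 to library 1 was 2.46 to 4.06. Tra2b had ratios of 1.16 to 1.19. With the library means removed, Atf3 and Tra2b stayed among the 5 nearest, and Zfp703 and Phlda1 did not.

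For Icam2 the 5 most similar of 4634 genes were Tmed10 (r = 0.99), Dync1h1 (0.97), Pdgfd (0.97), Map4k3 (0.97) and Efna1 (0.96). Pdgfd encodes a platelet-derived growth factor and Efna1 an ephrin ligand, with 147 and 240.1 CPM in artery-gated cells, against 10.1 and 79.9 CPM in vein-gated cells. For Vcam1 they were Tmem189 (0.96), Pdlim1 (0.94), Cd59a (0.93), Eea1 (0.93) and Gnaq (0.92) of 4635 genes. Cd59a, which encodes an inhibitor of complement, averaged 93.8 CPM in vein-gated, 56.9 in artery-gated and 10.7 in lymphatic-gated cells. Capillary-gated and tip-gated cells had 22.9 and 17.1 CPM of Cd59a, the reverse of the order of Vcam1 (5.59 and 6.53 CPM). The points share libraries and cells, and r carries no test. With the library means removed, 3 of the 5 genes stayed among the 5 nearest for Icam2 and 4 for Vcam1.

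Within a class, cells with more Icam1 mRNA carried more ICAM1 protein. Cells with at least 1 Icam1 UMI had more ICAM1 tags per cell than cells with none in 10 of 10 class and library pairs, with a median ratio of 1.86 (1.45 to 2.47), whereas the isotype controls had a median ratio of 1.12 (0.795 to 2.23). In vein-gated cells, where 23 and 9 cells had no Icam1 UMI, the isotype controls differed about as much, with ratios of 1.75 and 2.23, against 1.96 and 1.97 for ICAM1. In artery-gated cells the ICAM1 tag averaged 103 counts in 88 cells with the mRNA, against 41.6 in 103 cells without it in library 1, and 98.3 in 132 cells, against 65.7 in 83 cells in library 2. With the mRNA thinned to 4000 UMIs per cell the median ratio was 1.44. Cells with the mRNA were deeper as well (medians of 7511.5 against 6431 UMIs in artery-gated cells of library 1).

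**Figure D4:**
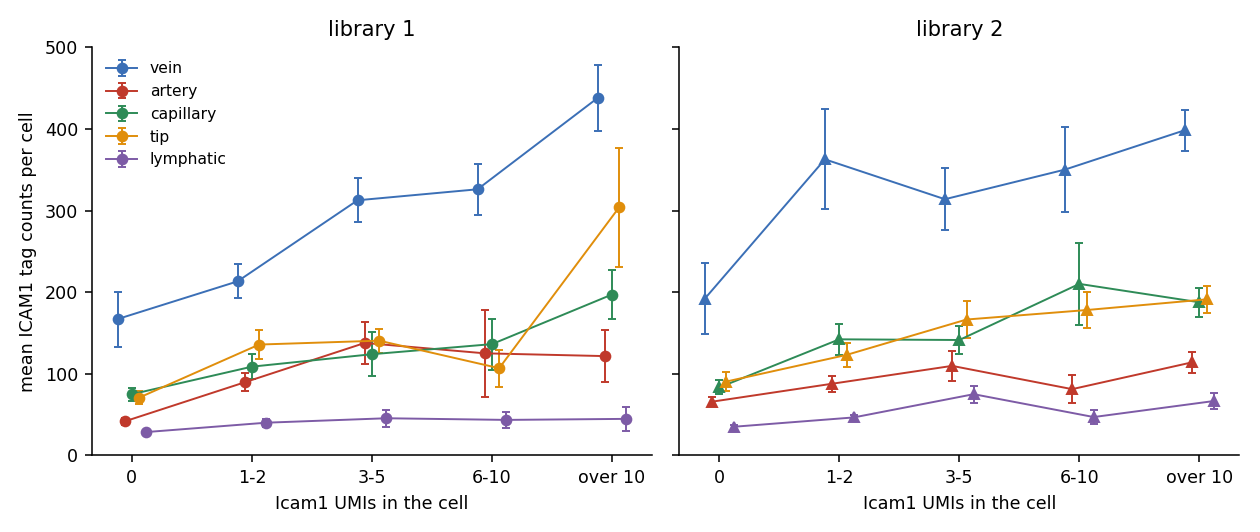
Mean ICAM1 tag counts per cell against the number of Icam1 UMIs in the cell, for each class and library, with bars for the standard error over cells, which are not replicates. Vein-gated cells run from 167 counts at 0 UMIs to 438 above 10 UMIs in library 1, and lymphatic-gated cells reach at most 74.9 counts.

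ICAM1 tags were lowest in cells with no Icam1 UMI in every class and library, and above that they did not climb evenly. In vein-gated cells of library 1, cells with 0, 1 to 2, 3 to 5, 6 to 10 and over 10 Icam1 UMIs averaged 167, 213, 313, 326 and 438 ICAM1 tag counts. In library 2 the same bins had 192, 363, 314, 350.2 and 399 counts. In lymphatic-gated cells of library 1 they had 28.5, 39.98, 45.4, 43.4 and 44.7 counts. At every level of mRNA, lymphatic-gated cells thus carried fewer tags than vein-gated cells: lymphatic-gated cells with over 10 Icam1 UMIs had 44.7 and 66.5 counts, and vein-gated cells with no Icam1 UMI had 167 and 192. Spearman correlations over cells of Icam1 CPM with the tag, given as a description, ranged from 0.11 to 0.39 over classes and libraries, against -0.07 to 0.13 for the isotype controls.

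For Vcam1 the link was weaker and rested on fewer cells. In vein-gated cells the VCAM1 tag averaged 4.30 counts in 57 cells with Vcam1 UMIs, against 2.12 in 136 without in library 1, and 3.25 in 44 cells, against 2.13 in 153 in library 2. In artery-gated cells it averaged 13.0 in 27 cells, against 1.86 in 164 cells in library 1, and 3.52 in 27 cells, against 2.31 in 188 cells in library 2. The medians in artery-gated cells were 4 against 1 and 2 against 1. Isotype ratios in these 4 comparisons were 0.726 to 1.12. Over all 10 class and library pairs the median VCAM1 ratio was 1.53 (1.04 to 6.99). The median isotype ratio was 1.05 (0.726 to 1.77). In tip-gated cells of library 2 the isotype ratio of 1.77 exceeded the VCAM1 ratio of 1.04. Capillary-gated, tip-gated and lymphatic-gated cells had only 4 to 10 cells with Vcam1 UMIs per library. With the mRNA thinned, the tag was higher in 8 of 9 pairs, with a median ratio of 1.47 (0.511 to 5.50).

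Within the artery gate, the VCAM1 tag was higher in cells with vessel wall genes, and Vcam1 mRNA was higher in value without passing its test. Artery-gated cells were split by the detection of at least 3 of Mgp, Eln, Fbln2 and Mmp2, genes of elastic and collagenous matrix known from larger arteries, which gave 80 and 45 cells with wall genes and 120 and 188 other cells. This split was added after results were seen. Cells with wall genes had 79.4 and 50.7 CPM of Vcam1, against 12.5 and 32.0 CPM in the other artery-gated cells. Both values lie above both of the others, but the log2 difference of 1.47 (SE 0.45) had an edgeR adjusted p of 0.0719, and single libraries gave 2.67 and 0.67. Of 10930 genes, 2.47% were called higher in cells with wall genes.

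The VCAM1 tag separated the same cells. It averaged 6.54 and 4.90 counts per cell in cells with wall genes, against 1.38 and 1.89 in other artery-gated cells. The IgG2a isotype control ran the other way, with 0.697 and 1.51 counts, against 1.15 and 1.74. The log2 difference of the VCAM1 tag was 1.85 (SE 0.30, edgeR adjusted p over 7 antibodies = 0.00103). The 3 highest cells held 50.5% and 35.3% of the VCAM1 tags of cells with wall genes. Without the 3 highest of each group the means were 3.37 and 3.42, against 1.04 and 1.63.

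ICAM1 protein was also higher in artery-gated cells with wall genes, with 87.3 and 121 tag counts per cell, against 58.3 and 77.4 in the others (log2 0.62, SE 0.11, adjusted p = 0.00124). Icam1 mRNA did not go with it: it was 180.4 and 265 CPM in cells with wall genes, against 190.4 and 766 CPM in the others (log2 -0.83, SE 0.27, adjusted p = 0.0982). In library 1 the mRNA values were close while the tag differed. The tag of CXCR4, a chemokine receptor, had 5.49 and 13.8 counts per cell in cells with wall genes, against 47.7 and 43.9 in the others. Icam2 was 963 and 874 CPM, against 813 and 767 CPM (log2 0.22, SE 0.10, adjusted p = 0.329).

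In lymphatic-gated cells a like split, by at least 2 of the valve and collecting vessel markers Cldn11, Foxc2, Itga9 and Gja4, called none of the receptors, where 1.16% of genes were called. ICAM1 tags averaged 35.4 and 51.2 counts in cells with these markers, against 29.1 and 45.4 in the others (log2 0.22, SE 0.11, adjusted p = 0.117). Icam1 mRNA was 100.01 and 452 CPM, against 83.7 and 443 CPM (log2 0.07, SE 0.22, adjusted p = 0.932). VCAM1 tags averaged 1.63 and 2.08 counts, against 1.19 and 1.28 (log2 0.58, SE 0.29, adjusted p = 0.117), while the IgG2a isotype control rose by 0.68 (adjusted p = 0.00744).

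Sele, the cytokine-induced selectin that slows leukocytes before the ICAM and VCAM receptors stop them, was used to mark activated cells. Vein-gated cells were split by 1 or more Sele UMIs into 123 and 166 Sele+ cells and 71 and 32 Sele- cells. Icam1 reached 1240.0 and 2610 CPM in Sele+ vein-gated cells, against 279.8 and 871 CPM in Sele- vein-gated cells. Vcam1 reached 119 and 55.2 CPM in Sele+ cells, against 42.8 and 27.1 CPM in Sele- cells, the last from 6 UMIs. Icam2 was 343 and 308 CPM in Sele+ cells, against 429.6 and 348 CPM in Sele- cells. Icam1 and Vcam1 values of Sele+ cells lay above those of Sele- cells in both libraries, and Icam2 values below.

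**Figure D5:**
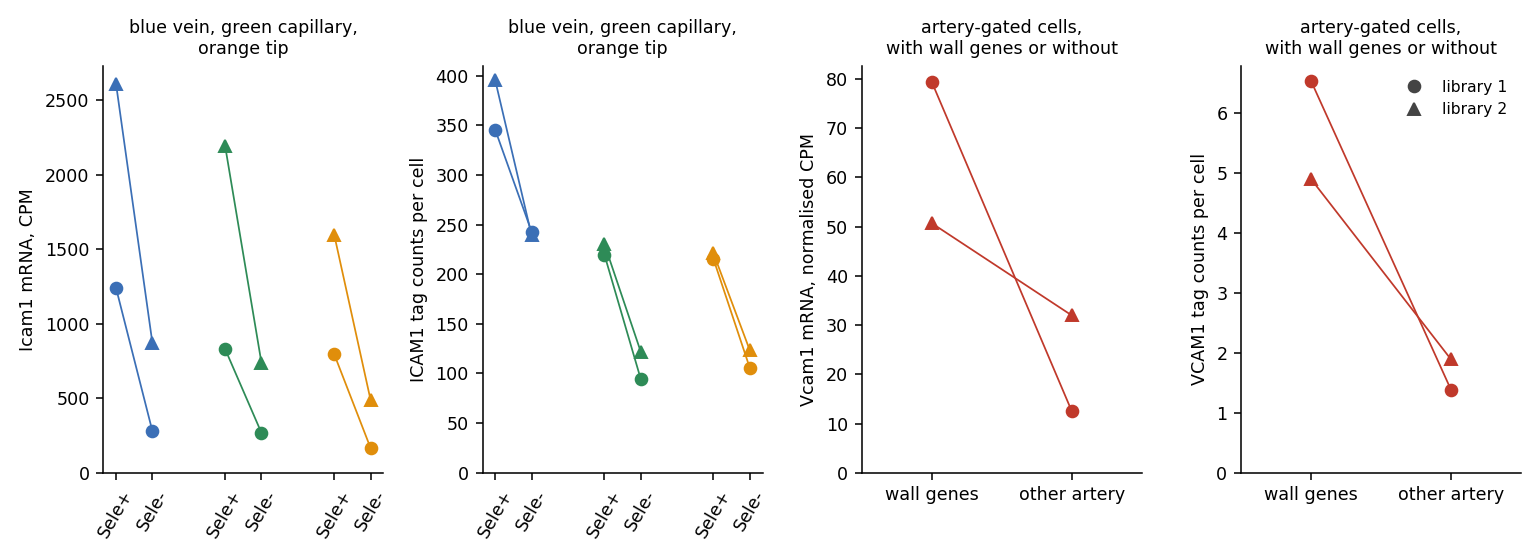
Icam1 mRNA (CPM) and ICAM1 tag counts per cell in Sele+ and Sele- cells of 3 gates, then Vcam1 mRNA and VCAM1 tag counts per cell in artery-gated cells with wall genes and in other artery-gated cells, with circles for library 1, triangles for library 2 and lines joining the values of a library. Every Sele+ value lies above the Sele- value of its class and library, and cells with wall genes lie above the other artery-gated cells.

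In the edgeR fit of vein-gated cells, which leaves 1 residual degree of freedom for mRNA and for tags, Icam1 was higher in Sele+ than in Sele- cells by 1.91 on the log2 scale (SE 0.15, adjusted p = 8.99e-07) and Vcam1 by 1.41 (SE 0.29, adjusted p = 0.0163), where 0.873% of 8366 genes were called higher. Icam2 had a log2 difference of -0.21 (SE 0.16, adjusted p = 0.746). The Vcam1 call was lost under 5 of 12 alternatives and both calls without the replicate block (adjusted p = 0.776 for each). ICAM1 tags averaged 345 and 395 counts per cell in Sele+ vein-gated cells, against 243 and 239 in Sele- cells. This tag difference of 0.62 (SE 0.43, adjusted p = 0.945) did not pass.

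Capillary-gated and tip-gated cells had fewer Sele+ cells, 15 and 46 in the capillary gate and 17 and 46 in the tip gate, and entered a fit of 3 classes that was added after results were seen. Icam1 reached 829.9 and 2192 CPM in Sele+ capillary-gated cells, against 267 and 736 CPM in Sele- cells, and 795 and 1596 CPM in Sele+ tip-gated cells, against 166 and 487 CPM in Sele- cells. The log2 differences were 1.62 (SE 0.15, edgeR adjusted p = 8.57e-06, with 0.498% of 9232 genes called higher) and 1.96 (SE 0.15, adjusted p = 5.6e-07, with 0.141% called higher). The difference between classes in this change did not pass for Icam1 in any of the 3 pairs, with adjusted p-values from 0.919 to 1.

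ICAM1 protein rose in Sele+ cells of all 3 classes in that fit. Sele+ capillary-gated cells had 219.9 and 231 ICAM1 tag counts per cell, against 94.4 and 122 in Sele- cells (log2 1.07, SE 0.17, adjusted p = 0.00227). Sele+ tip-gated cells had 215 and 221, against 105 and 123 (log2 0.94, SE 0.17, adjusted p = 0.0049). For vein-gated cells the log2 difference was 0.61 (SE 0.17, adjusted p = 0.049). In each class the change of the tag was smaller than that of the mRNA, a comparison that was not tested. Sele+ cells were deeper in these gates, with medians of 13760 and 11712.5 UMIs, against 7175.5 and 7535 UMIs in Sele- capillary-gated cells, and the isotype controls had 2.73 and 2.63 counts, against 1.88 and 3.11. Vein gate markers were also higher in Sele+ capillary-gated cells (3.23 and 2.50 per 10000 UMIs, against 1.87 and 1.98 in Sele- cells). In tip-gated cells they were 2.38 and 1.81, against 1.43 and 1.32. In vein-gated cells they were 27.4 and 24.9, against 27.3 and 16.4. The part of venous identity in the Sele comparison was not tested. The VCAM1 tag changed by 0.07 in vein-gated, -0.24 in capillary-gated and 0.15 in tip-gated cells, with adjusted p-values from 0.73 to 0.894.

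The rest of the leukocyte adhesion cascade differed among classes in all 22 of its 26 genes that were tested, against 50.0% of all genes. In vein-gated cells 13 were higher and 2 lower than in the other classes, with a median log2 difference of 0.73, against 0.0038 over all genes, of which 10.7% were higher and 5.51% lower. Selp, Ackr1 and Vwf are markers of the vein gate, so their venous level was set in part by the gating. Pecam1 and Cdh5 are endothelial gate markers. Among the other 17 genes 9 were higher and 2 lower in vein-gated cells, with a median of 0.71. The 3 with the smallest p across classes were the platelet and endothelial selectins and a junction protein: Selp averaged 1063 ± 475 CPM (SD, n = 2) in vein-gated cells, Sele 992 ± 523 CPM, and Jam2 254 ± 20.8 CPM. Jam2 was nearly as high in capillary-gated (228 ± 21.7 CPM) and artery-gated cells (223 ± 8.20 CPM). In lymphatic-gated cells 3 genes were higher and 16 lower, with a median of -2.17, where 23.4% of all genes were higher and 22.6% lower, and Jam2 averaged 1.82 ± 0.008 CPM there. Of the other ICAM genes, Icam4 had 14 and 36 UMIs in all endothelial cells and was not tested, and Icam5 averaged 6.80 ± 3.94 CPM in vein-gated cells.

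The integrins that bind these receptors belong to leukocytes, and their mRNA was near absent from the sorted endothelium. Of 8 genes, Itgb1, which endothelial cells also use, alone had enough counts to be tested, at 684 ± 64.5 CPM in artery-gated and 479 ± 23.0 CPM in lymphatic-gated cells (SD, n = 2). Itgam, Itgax and Itgad had 0 UMIs, Itgb2 had 10 and 14 and Itga4 27 and 32 UMIs in all endothelial cells of libraries 1 and 2.

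Of 14 genes for cytoplasmic partners of ICAM and VCAM, 10 differed among classes, against 50.0% of all genes. In vein-gated cells 1 was higher and 1 lower (median -0.06, against 0.0038 over all genes), near the 10.7% and 5.51% of all genes. Actn4, an actin crosslinker, averaged 563 ± 83.7 CPM in artery-gated and 163 ± 14.7 CPM in lymphatic-gated cells. Its relative Actn1 averaged 173 ± 25.3 CPM in vein-gated and 41.1 ± 16.2 CPM in artery-gated cells. Of 5 genes that shed the receptors or curb shedding, 4 were tested and differed, a test that 50.0% of all genes passed. Timp3, an inhibitor of metalloproteases, averaged 593 ± 69.1 CPM, the sheddase gene Adam17 59.2 ± 1.89 CPM and Adam9 13.2 ± 3.60 CPM in artery-gated cells, against 424 ± 127, 38.1 ± 3.41 and 10.3 ± 1.76 CPM in vein-gated cells. Lymphatic-gated cells had 566 ± 46.8, 30.6 ± 0.059 and 18.4 ± 0.13 CPM, the highest class for Adam9. Artery-gated cells were not called against the others for Adam9 (log2 0.39, edgeR adjusted p = 0.309).

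NF-kB subunits and feedback genes differed in 12 of 14, against 50.0% of all genes. In vein-gated cells 8 were higher and 0 lower (median 0.66, against 0.0038 over all genes), where 10.7% of all genes were higher and 5.51% lower. In lymphatic-gated cells 1 was higher and 11 lower (median -1.02, against 0.018 over all genes), where 23.4% were higher and 22.6% lower. The inhibitor gene Nfkbia averaged 2276 ± 879 CPM, Nfkbiz 404 ± 139.9 CPM and the deubiquitinase gene Tnfaip3 101 ± 76.6 CPM in vein-gated cells. In lymphatic-gated cells they averaged 504 ± 201, 70.3 ± 16.0 and 10.0 ± 9.06 CPM. Of 11 cytokine receptor genes upstream of ICAM1 and VCAM1, 10 differed, with 6 higher and 0 lower in vein-gated cells (median 0.80) and 0 higher and 9 lower in lymphatic-gated cells (median -1.68), to be read against the same shares and medians of all genes. The TNF receptor gene Tnfrsf1a averaged 330.3 ± 16.3 CPM in vein-gated and 42.4 ± 0.063 CPM in lymphatic-gated cells, the IL-1 receptor gene Il1r1 43.8 ± 4.38 and 1.10 ± 0.160 CPM, and Il6st, the shared IL-6 family receptor, 382 ± 30.9 and 117 ± 18.6 CPM. Il6st was not called in lymphatic-gated cells against the other classes (log2 -0.24, edgeR adjusted p = 0.112). It averaged 114 CPM in artery-gated, 93.7 in capillary-gated and 84.6 in tip-gated cells. Il1r1 was also among the markers that checked the vein gate.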

How the data were processed

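Single-cell mRNA and antibody tag libraries of 2 biological replicates were used. For mRNA the deposited files list unnormalised UMI counts for each gene and barcode. The submitters' processing notes name Cell Ranger, Seurat 3.0.2 and the genome build mm10 without saying which step each served, and strand use in counting is not stated. Antibody tags were deposited as counts per barcode, of a kind (molecules or reads) that no source used here gives. Unmatched tag counts (7.91% and 11.5%) were left out.

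Cells with at least 500 genes and at most 10% mitochondrial UMIs were kept, and 2 and 11 doublets (0.347%) called by Scrublet in scanpy 1.11.5 were removed. Of the mRNA barcodes, 3 occur in both libraries. Cells were set aside with 3 or more markers of a non-endothelial type at a summed level of 10 or more per 10000 UMIs, were gated as lymphatic with 3 of 6 markers, and otherwise by the highest of 4 scores (mean z-score of the marker set within a library, standardised, at least 0.5 and at least 0.25 above the next). No correction for free RNA was made.

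UMIs were summed per class and library and tested with edgeR 4.0.16 in R 4.3.3 (TMM, low-count filter, quasi-likelihood test) with the library as replicate block, because all classes of a library come from the same sample, and Benjamini-Hochberg adjustment at 0.05. Tag sums used the number of cells as library size. The SE is the log2 difference divided by the square root of F. Normalised CPM are TMM-scaled, and Sele groups are given in plain CPM. In simulated data for vein-gated cells against the rest, 91% of genes changed 2-fold and 98% of those changed 4-fold were found. Of the genes called among 10308, 7.35% were false calls. The simulation set no difference between libraries and none among the other classes, and gave all genes the same dispersion. The real sums differ in these respects, so the rates do not measure how the test performs on them. Named genes were the receptors, up to 3 genes of each of 6 lists with the smallest p across classes, and the 5 genes nearest to each receptor by correlation, without gate markers, predicted models, mitochondrial and ribosomal protein genes and with a mean log2 CPM of at least 5. Of the genes this rule names, 2 are not reported here. The members and lists were chosen with earlier results of these data known.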

Additional observations from a re-analysis of the deposited data

Results flagged for a closer look

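Tag barcodes that matched no mRNA barcode were used in no comparison, and ICAM1 tags were found in them: a mean of 5.72 counts per barcode in library 1 (1306 barcodes, median 2) and 21.3 in library 2 (330 barcodes, median 11). The IgG2a isotype control averaged 0.171 and 0.552 counts in the same barcodes, and VCAM1 0.152 and 0.424. ICAM1 made up 74.5% and 85.4% of antibody counts there, against 80.7% and 83.1% in barcodes with mRNA. The level lies below that of lymphatic-gated cells, at 32.8 and 47.7 counts per cell. The multiple over the isotype control does not. Summed ICAM1 and IgG2a counts of these barcodes were 7466 and 223 in library 1 and 7021 and 182 in library 2. In lymphatic-gated cells they were 9130 and 283 in library 1 and 24008 and 806 in library 2. The part of such tags in the ICAM1 level of cells was not tested.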

How the results depend on the processing

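The order of the receptors over classes rests on comparisons within a library. Without the library as replicate block, the vein minus lymphatic log2 difference of Icam1 was 2.68 with an edgeR adjusted p of 0.127 across classes, against 2.86 with it. Leaving out 1 library at a time gave 2.54 to 3.28 for Icam1, 1.68 to 1.87 for Icam2 (artery minus lymphatic), 3.59 to 5.43 for Vcam1, 2.96 to 3.23 for the ICAM1 tag and 0.62 to 1.24 for the VCAM1 tag (artery minus lymphatic), as values with no test. Over single libraries the VCAM1 tag ran from -0.59 to 0.31 in capillary-gated cells, -0.34 to 0.16 in tip-gated cells and -0.16 to 0.49 between Sele+ and Sele- cells, and Vcam1 mRNA from -1.47 to 1.03 between lymphatic-gated cells with valve markers and others. With clusters in place of gates the VCAM1 tag passed across classes (artery minus lymphatic 0.85, adjusted p = 0.00278), and Vcam1 in tip-gated cells against the rest turned to 0.024 (adjusted p = 0.996). Scaled to all tags, the ICAM1 tag turned to -0.19 in tip-gated (adjusted p = 0.0212) and to 0.082 in lymphatic-gated cells (adjusted p = 0.128). The VCAM1 tag so scaled turned to -0.34 across classes (artery minus lymphatic, adjusted p = 0.00696), -1.34 in vein-gated cells, 1.27 in lymphatic-gated cells and -0.43 between Sele+ and Sele- cells. Such scaling divides each tag by a total that is mostly ICAM1. Relative to isotypes the ICAM1 tag was -0.34 in capillary-gated cells. Sign changes of small VCAM1 tag differences were 0.023 in capillary-gated cells with stricter gates, 0.088 in tip-gated cells with clusters, and, between Sele+ and Sele- cells, -0.31 with clusters, -0.18 with gates on thinned cells and -0.0074 with at least 15 cells. DESeq2 called 3255 genes across classes, 1714 for artery, 976 for vein, 740 for capillary, 949 for tip and 2863 for lymphatic, against 5346, 2981, 1737, 1216, 1934 and 4925 by edgeR. A stricter cell filter, with 9261 genes tested, called 3494 across classes, 1793 for artery, 926 for vein, 624 for capillary and 887 for tip. Between Sele+ and Sele- cells edgeR called 141 genes, against 1 without the replicate block, 248 without a low-count filter, 32 by DESeq2, 502 with looser gates, 34 with clusters, 215 with gates on thinned cells, 271 with 2 or more Sele UMIs and 232 in the fit with at least 15 cells. The ICAM1 tag difference there passed without a cell filter (0.87, adjusted p = 0.00508), with looser gates (0.88, adjusted p = 4.52e-05), with clusters (0.86, adjusted p = 0.016) and with at least 15 cells (0.87, adjusted p = 0.00023), settings that changed the cells compared. With mRNA thinned, the ratio of ICAM1 tags in cells with and without Icam1 was 1.44, against 1.86. Of these changes, the cause was not tested. Depth limits Vcam1, which rests on 4 to 184 UMIs per class and library.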

Other observations

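The 830 blood endothelial cells without a clear class carried the receptors at levels between the gated classes. Icam1 had 417 and 1262 CPM in libraries 1 and 2, Icam2 460.2 and 384 CPM and Vcam1 11.4 and 18.5 CPM, in CPM without TMM scaling. ICAM1 tags averaged 155 and 186 counts per cell there, and VCAM1 tags 2.15 and 2.02, against 1.10 and 1.81 for the IgG2a isotype control.

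Cells set aside for markers of mural cells had passed the same sort. Those set aside for pericyte genes numbered 72 and 105 and carried Icam1 at 223 and 626 CPM, Icam2 at 272 and 189 CPM and ICAM1 tags at 102 and 115 counts per cell. Those set aside for smooth muscle genes numbered 15 and 13, with Icam1 at 320.1 and 391 CPM and ICAM1 tags at 261 and 412 counts per cell. Icam2 in these groups was 325 and 241 CPM for the smooth muscle genes. The part of doublets with endothelial cells in these values was not tested.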
